A study of Mus musculus with 6 samples.

Results

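The 10 genes described here are the subunits of the transcription factor NF-kB (Nfkb1, Nfkb2, Rel, Rela and Relb), 3 cytoplasmic inhibitors that bind them (Nfkbia, Nfkbib and Nfkbie), the feedback gene Tnfaip3 and the target gene Icam1. They were taken by symbol from a list chosen with earlier results of these data known, so counts of them beside all genes are a description. All 10 were found among the 53379 gene identifiers of the count tables. RNA-seq was carried out on Min6 cells, an insulin-producing mouse insulinoma line that stands in for pancreatic beta cells. The cells were transduced with lentiCRISPR v2, a lentiviral vector that carries both Cas9 and a guide RNA (gRNA). The gRNA targeted either the Rosa26 locus, the negative control, or JunD (gene symbol Jund), which encodes a transcription factor of the AP-1 family. Each gRNA was represented by 3 libraries. Both groups were at passage 28, were harvested 8 days after transduction, and had spent the last 30 hours under glucolipotoxic conditions, a combination of excess glucose and fatty acid. All values below are therefore from stressed cells, and unstressed cells were not analysed here. The labels name neither a clone nor a pool, nor say whether replicates were transduced separately, so the p-values reflect only how far these libraries spread, which may be technical.

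NF-kB is a dimer of Rel-family proteins that inhibitors of the IkB family hold in the cytoplasm. Cytokine and stress signals activate a kinase complex that marks the inhibitor for degradation, and the freed dimer enters the nucleus and switches on its targets. Several targets encode parts of the pathway itself, such as inhibitors and precursor subunits, so that their transcript levels are a common readout of its activity. In beta cells NF-kB is known for driving chemokine, adhesion and nitric oxide synthase genes in response to inflammatory cytokines.

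Library totals ran from 41071566 to 50024931 counts. Jund was at 39.3, 34.5 and 30.4 CPM (read counts scaled by the total of the library) with the Rosa26 gRNA and at 22.6, 25.1 and 26.9 CPM with the JunD gRNA, a log2 fold change of -0.47 ± 0.11 (SE, edgeR adjusted p = 0.417). Rosa26 gRNA replicate 1 stood apart: the median absolute log2 deviation of its genes from the average of the other 5 libraries was 0.252, and in the rest it was 0.0671 to 0.131. The log2 fold changes of the 10 members are therefore given with and without it, and without it the log2 fold change of Jund was -0.38 ± 0.08 (SE, edgeR adjusted p = 0.00773). The 10 beta cell markers summed to between 50780 CPM, in that replicate, and 95360 CPM. Markers of 3 other cell types that can express Icam1 were summed in each library. The 10 macrophage and leukocyte markers summed to 3.76 to 5.10 CPM with the Rosa26 gRNA and 2.85 to 4.11 CPM with the JunD gRNA, with Adgre1 at 0 in every library. Cd68 made up most of it, at 3.82, 3.96 and 3.05 CPM against 2.89, 2.19 and 2.80 CPM. Its groups did not overlap, and every other marker of this list was under 1 CPM. The 10 endothelial markers summed to 16.7 to 22.45 and 19.8 to 23.1 CPM, and Cdh5, an endothelial cadherin, had counts in 1 library alone. Most of that sum was Esam, an adhesion molecule, at 11.5 to 18.1 CPM. Plvap (1.68 to 2.76 CPM), Pecam1 (1.10 to 2.02 CPM) and Vwf (0.766 to 1.59 CPM) had counts in every library. The 10 fibroblast and stellate markers summed to 2.12 to 4.04 and 2.56 to 4.13 CPM, with Col3a1, Lum, Acta2 and Postn at 0. Col1a2 (0.861 to 2.14 CPM) and Col1a1 (0.599 to 1.52 CPM) had counts in every library. So did Thy1, at 0.161, 0.26 and 0.23 CPM with the Rosa26 gRNA and 0.598, 0.463 and 1.007 CPM with the JunD gRNA. The part of these cell types in the results was not tested. In bulk RNA, fewer cells of a type and less RNA per cell cannot be told apart.

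Icam1 was the member that differed most between the gRNAs, and Nfkb2 was the only other one to pass under any alternative setting. No member passed the test across genes with all 6 libraries, where 0% of 17767 genes did (edgeR quasi-likelihood test, Benjamini-Hochberg adjusted p under 0.05; DESeq2 called 0.377%, and no member). An unadjusted p under 0.05 was reached by Icam1, Nfkb2 and Rel, all lower, beside 11.9% of all genes in either direction and 6.51% that were lower. In 5 members, Nfkb1, Nfkb2, Rel, Tnfaip3 and Icam1, every JunD gRNA library lay below every Rosa26 gRNA library in CPM, compared with 12.8% of all tested genes, and in 0 members did it lie above (11.6% of all genes). That count was 3 when CPM were scaled by TMM factors, which correct for composition, compared with 11.4% of all genes on that scale. In that case Nfkb1 and Rel overlapped. Without Rosa26 gRNA replicate 1 the same 5 members lay below in CPM and 0 above, where 17.3% and 15.7% of all genes did. On those 5 libraries Icam1 fell and the other 9 members did not pass, beside 2.86% of 18296 genes called in either direction and 1.4% called lower.

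**Figure D1:**
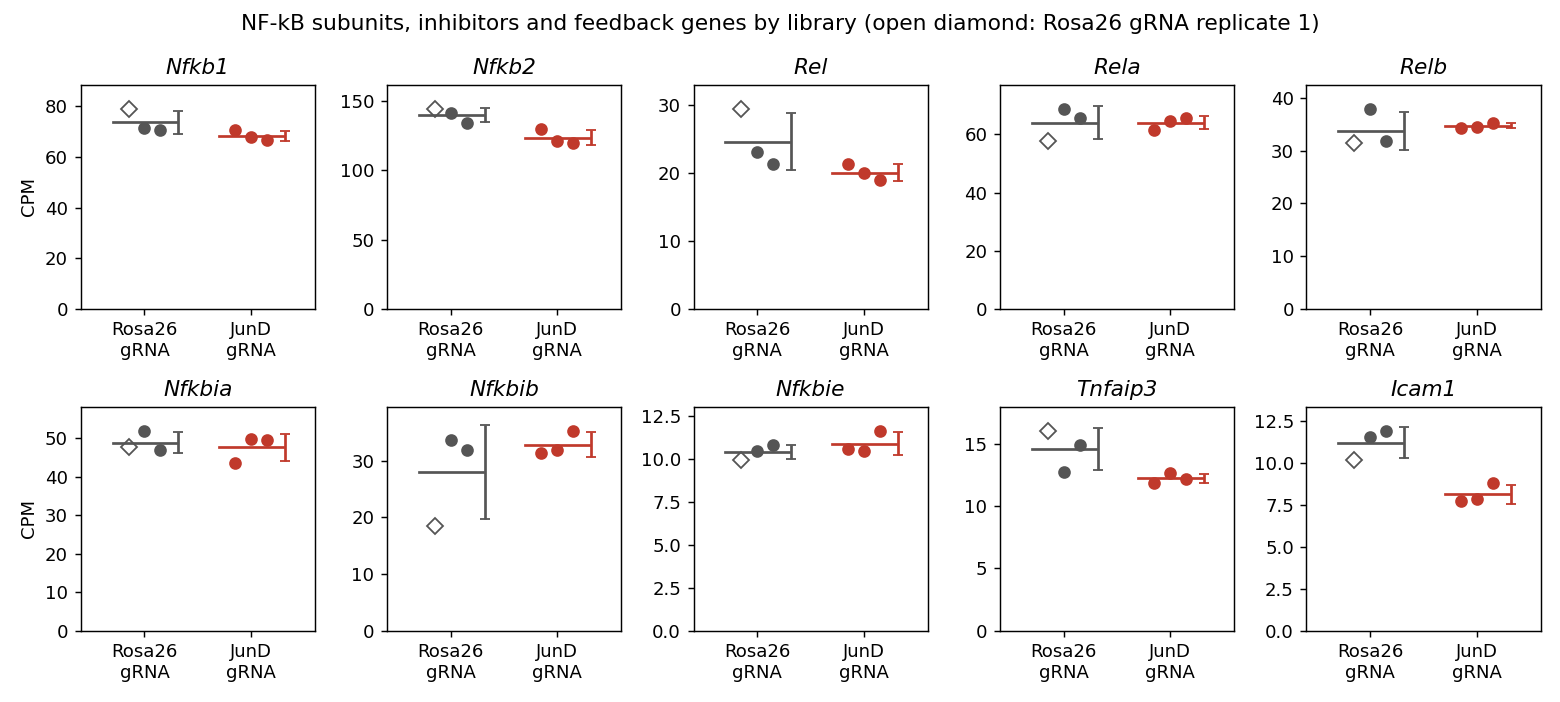
Level of each of the 10 genes in every library, in CPM on axes that start at 0, for Rosa26 gRNA (grey) and JunD gRNA (red), with the group mean (line) and SD (bar). The groups lie apart for Nfkb1, Nfkb2, Rel, Tnfaip3 and Icam1, and the open diamond of Rosa26 gRNA replicate 1 is far below the rest for Nfkbib (18.5 CPM) and highest for Rel (29.4 CPM).

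Several members are known targets of NF-kB, and JunD is a subunit of AP-1, so the members' promoter sequences were searched for the motifs of both. RefSeq promoter windows on GRCm38.p6, from 250 bases before a transcript start to 50 after it, were matched for 8 members. These members have 11 windows together. A member is named below if any of its windows matched, whereas the shares are of single windows. The NF-kB consensus motif, searched on both strands, was found in those of Nfkb2, Rel, Nfkbia, Nfkbie and Tnfaip3, and in 4.51% of all 32851 windows. The shorter string GGAAATTCC, added after the sequences had been seen, was found in those of Nfkbia, Tnfaip3 and Icam1 and in 0.317% of windows. In Nfkbia it lies inside the consensus match. The AP-1 motif TGACTCA, searched on both strands, was found in those of Tnfaip3 and Nfkbie and in 5.2% of windows. Icam1 held no match to the consensus or to the AP-1 motif. Its match to GGAAATTCC was in view when that string was added, so setting it beside the 0.317% share is not a test. A match is a string of letters, and no binding was measured. The 250 bases before the start are shown for Icam1 (chr9:21015690-21015939, plus strand) and for Nfkbia (chr12:55492648-55492897, minus strand). In edgeR, Icam1 passed without Rosa26 gRNA replicate 1 but not with all 6 libraries, and Nfkbia, a known target, passed in neither fit. GGAAATTCC and the consensus match are in capitals, 5′ to 3′ on the gene's strand.
Icam1: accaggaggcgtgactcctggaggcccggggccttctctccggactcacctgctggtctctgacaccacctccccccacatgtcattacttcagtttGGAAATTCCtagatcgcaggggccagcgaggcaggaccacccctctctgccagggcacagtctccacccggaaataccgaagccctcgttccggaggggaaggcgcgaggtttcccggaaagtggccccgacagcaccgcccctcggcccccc
Nfkbia: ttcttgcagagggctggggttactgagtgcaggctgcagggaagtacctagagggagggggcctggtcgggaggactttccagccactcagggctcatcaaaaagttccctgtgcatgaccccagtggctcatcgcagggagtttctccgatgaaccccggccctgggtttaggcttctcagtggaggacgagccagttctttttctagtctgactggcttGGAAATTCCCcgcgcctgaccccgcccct
For the members with a consensus match whose windows overlap annotated exons, short stretches around it are shown, with the match in capitals. They are Nfkb2 (chr19:46304688-46304717 and chr19:46305695-46305724, plus strand), Rel (chr11:23771042-23771071, minus strand) and Tnfaip3 (chr10:19015403-19015432, minus strand), which were lower in every JunD gRNA library in CPM. The match in the second Nfkb2 stretch begins 10 bases after one transcript start and 225 bases before the next.
Nfkb2 upstream start: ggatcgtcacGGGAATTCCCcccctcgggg
Nfkb2 downstream start: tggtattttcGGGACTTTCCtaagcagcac
Rel: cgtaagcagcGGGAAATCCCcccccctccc
Tnfaip3: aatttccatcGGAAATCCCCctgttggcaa
Further consensus matches were at chr19:46304726-46304735 and chr19:46305459-46305468 for Nfkb2 and at chr10:19015526-19015535 for Tnfaip3. The matches shown for Nfkb2's upstream start and for Rel are each overlapped by a second match on the other strand. Nfkbie, which overlapped between the groups, has its consensus match at chr17:45555594-45555603 and its AP-1 motif at chr17:45555544-45555550. The AP-1 motif of Tnfaip3 lies at chr10:19015540-19015546, in the stretch below with the motif in capitals.
Tnfaip3 AP-1: aatgcccaggTGACTCAcgcggggaca

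Icam1 encodes an adhesion molecule that leukocytes bind, and its gene (ENSMUSG00000037405.8) is on chromosome 9 from 21015985 to 21028817 (GRCm38, plus strand), with 7 separate exonic blocks. It stood at 10.2, 11.6 and 11.9 CPM in Rosa26 gRNA replicates 1, 2 and 3, from 443, 578 and 571 counts. With the JunD gRNA it stood at 7.75, 7.86 and 8.81 CPM, from 324, 323 and 437 counts. The groups did not overlap, and the left-out replicate was the lowest of its group. Its log2 fold change was -0.45 ± 0.11 (SE, 95% interval -0.71 to -0.19, edgeR adjusted p = 0.417) with 6 libraries. It fell by 0.52 ± 0.10 on the log2 scale without Rosa26 gRNA replicate 1 (95% interval -0.74 to -0.31, edgeR adjusted p = 0.00664). Reads of the antisense gene Gm47079, which overlaps an exon, cannot be told apart without a stated strand setting, but its own count was between 1 and 17 per library.

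Among the subunits, the precursor gene Nfkb2 was lower with the JunD gRNA by a small amount. Nfkb2 encodes the precursor of the subunit of the non-canonical arm of the pathway (ENSMUSG00000025225.14, chromosome 19 from 46304320 to 46312385, plus strand). It stood at 144, 142 and 134 CPM with the Rosa26 gRNA and at 130, 121 and 120 CPM with the JunD gRNA. The groups did not overlap, but the gap between them was smaller than the SD within either (5.18 and 5.35 CPM). Its log2 fold change was -0.16 ± 0.07 (SE, edgeR adjusted p = 0.417) with 6 libraries and -0.15 ± 0.05 without Rosa26 gRNA replicate 1 (edgeR adjusted p = 0.0725). It passed on those 5 libraries with DESeq2 (-0.15, adjusted p = 0.046) and once the counts were corrected for GC content and transcript length (-0.23 ± 0.04, edgeR adjusted p = 0.00168). Its 3′ end overlaps that of Psd on the opposite strand, a gene with 10697 to 17958 counts. Reads in the shared stretch could therefore affect the count of Nfkb2, in a direction that is not known here.

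Nfkb1 and Rel were lower in CPM in the JunD gRNA libraries as well, but neither passed in any of the 20 alternatives. Nfkb1 encodes the precursor of a subunit of the classical dimer (ENSMUSG00000028163.17, chromosome 3 from 135584655 to 135691547, minus strand). It stood at 79.0, 71.5 and 70.6 CPM against 70.6, 67.95 and 66.6 CPM. The lowest Rosa26 gRNA library and the highest JunD gRNA library were all but level. Its log2 fold change was -0.09 ± 0.07 (SE, edgeR adjusted p = 0.547), and -0.05 ± 0.05 without Rosa26 gRNA replicate 1 (0.701). Rel encodes c-Rel, a subunit with a strong activation domain (ENSMUSG00000020275.9, chromosome 11 from 23736847 to 23770970, minus strand). It stood at 29.4, 23.1 and 21.3 CPM with the Rosa26 gRNA and at 21.2, 20.0 and 18.9 CPM with the JunD gRNA. Much of its difference rested on Rosa26 gRNA replicate 1, the highest library. The log2 fold change of Rel was -0.28 ± 0.12 (SE, edgeR adjusted p = 0.417) with that replicate and -0.14 ± 0.08 without it (edgeR adjusted p = 0.383).

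Rela and Relb, the subunits that carry the transactivation domain of the classical and the non-canonical dimer, overlapped between the groups. Rela (ENSMUSG00000024927.7, chromosome 19 from 5637483 to 5648130, plus strand) stood at 57.8, 68.8 and 65.8 CPM against 61.5, 64.7 and 65.8 CPM. Its lowest level was that of Rosa26 gRNA replicate 1, and its log2 fold change was 0.01 (95% interval -0.18 to 0.21, edgeR adjusted p = 0.954) with it and -0.07 (-0.17 to 0.04, edgeR adjusted p = 0.605) without it. Relb (ENSMUSG00000002983.17, chromosome 7 from 19606217 to 19629438, minus strand) stood at 31.4, 37.9 and 31.8 CPM against 34.3, 34.6 and 35.3 CPM. The JunD gRNA libraries lay within the range of the controls. The log2 fold change of Relb was 0.06 (-0.15 to 0.27, edgeR adjusted p = 0.776) and, on 5 libraries, -0.00 (-0.15 to 0.14).

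The 3 inhibitors did not pass either, and all overlapped between the groups. Nfkbia encodes IkB-alpha, an inhibitor that NF-kB itself rapidly induces (ENSMUSG00000021025.8, chromosome 12 from 55489410 to 55492647, minus strand). It stood at 47.8, 51.9 and 46.8 CPM with the Rosa26 gRNA and at 43.5, 49.8 and 49.4 CPM with the JunD gRNA. JunD gRNA replicate 1 was the lowest of all 6 and the other two lay inside the control range. Its log2 fold change was -0.02 (95% interval -0.21 to 0.17, edgeR adjusted p = 0.914) with 6 libraries and -0.05 (-0.18 to 0.09, edgeR adjusted p = 0.79) with 5. For Nfkbia the interval on 5 libraries thus does not reach the fall of 0.52 measured for Icam1, although the difference between the genes was not tested.

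Nfkbib encodes IkB-beta (ENSMUSG00000030595.15, chromosome 7 from 28758251 to 28767512, minus strand), and its levels were 18.5, 33.7 and 31.9 CPM against 31.3, 31.9 and 35.3 CPM. A single library, Rosa26 gRNA replicate 1, set the size of its difference. The log2 fold change of Nfkbib was 0.24 ± 0.20 (SE, edgeR adjusted p = 0.572) with that replicate and 0.01 ± 0.07 without it (edgeR adjusted p = 0.977). Its exons overlap those of Sirt2 (2823 to 3904 counts) and Ccer2 (6 to 10 counts) on the opposite strand. Nfkbie, which encodes IkB-epsilon (ENSMUSG00000023947.7, chromosome 17 from 45555703 to 45563169, plus strand), stood at 9.95, 10.5 and 10.8 CPM against 10.5, 10.4 and 11.6 CPM. Its log2 fold change was 0.08 (95% interval -0.15 to 0.31, edgeR adjusted p = 0.71) and 0.04 (-0.16 to 0.25, edgeR adjusted p = 0.899) without Rosa26 gRNA replicate 1.

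Tnfaip3 encodes a ubiquitin-editing enzyme that shuts off signalling upstream of the inhibitors (ENSMUSG00000019850.11, chromosome 10 from 19000910 to 19015657, minus strand). It stood at 16.1, 12.8 and 15.0 CPM with the Rosa26 gRNA and at 11.9, 12.6 and 12.2 CPM with the JunD gRNA. The JunD gRNA libraries lay together just under the lowest control, Rosa26 gRNA replicate 2. Its log2 fold change was -0.24 ± 0.11 (SE, 95% interval -0.47 to 0.00, edgeR adjusted p = 0.417) with 6 libraries and -0.17 ± 0.09 (edgeR adjusted p = 0.387) with 5.

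**Figure D2:**
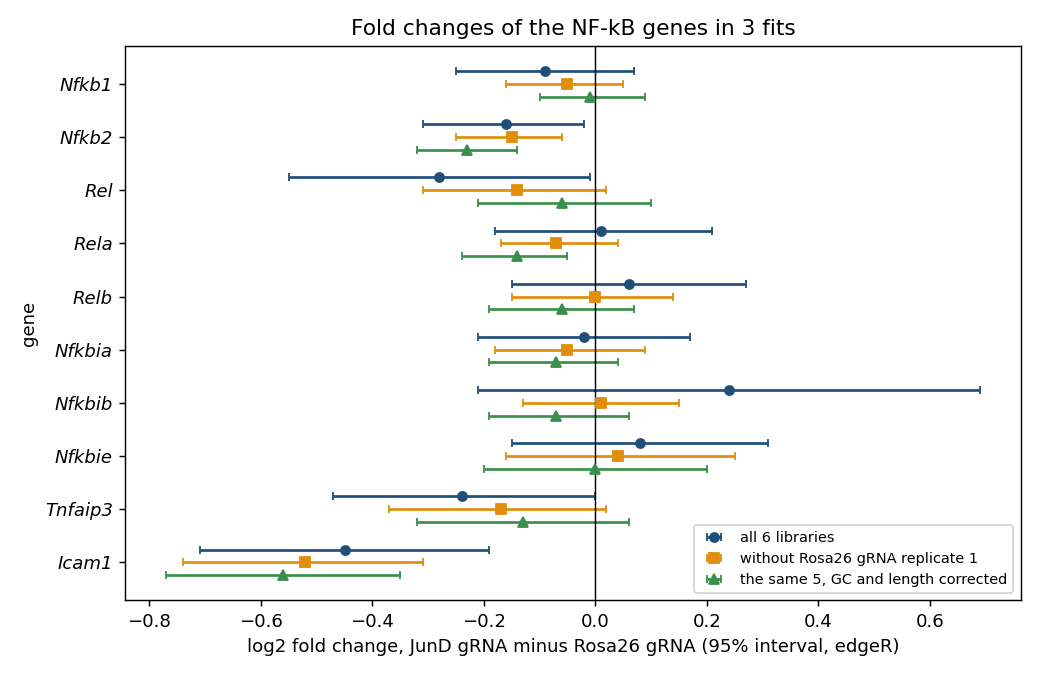
Log2 fold change of each gene (JunD gRNA minus Rosa26 gRNA, with its 95% interval) in 3 edgeR fits: all 6 libraries (circles), 5 libraries without Rosa26 gRNA replicate 1 (squares) and the same 5 after correction for GC content and transcript length (triangles). Icam1 lies at -0.45, -0.52 and -0.56, Nfkb2 at -0.16, -0.15 and -0.23, and Rel moves from -0.28 to -0.06.

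The members that were lower differed in the base composition of their transcripts. Across all tested genes the log2 fold change rose with the GC content of the longest transcript (Spearman correlation across genes, which are not replicates, of 0.47 over 17743 genes with 6 libraries and 0.28 over 18270 with 5). Genes with 40 to 48% GC had a median of -0.11 with 6 libraries and -0.05 with 5, and genes with 52 to 60% GC had medians of 0.10 and 0.04. Nfkb1 (44.9% GC), Rel (42.5%) and Tnfaip3 (47.1%) are in the lower range. Nfkb2 (59.4%) and Icam1 (55.4%) are in the upper range, with Rela (59.4%), Relb (56.8%), Nfkbia (52.9%), Nfkbib (58.8%) and Nfkbie (55.4%). After the correction on 5 libraries, the log2 fold change was -0.01 for Nfkb1, -0.06 for Rel and -0.13 for Tnfaip3. Nfkb2 (-0.23) and Icam1 (-0.56 ± 0.10 (SE), edgeR adjusted p = 0.00112) both fell in that fit, beside 1.3% of all genes called lower. With all 6 libraries corrected, Icam1 was at -0.57 (edgeR adjusted p = 0.053) and Nfkb2 at -0.33 (0.225), and 0.158% of all genes passed. For single libraries, log2 deviations from the average of the other 5 were correlated with GC content across genes. The Spearman correlations were 0.408, 0.354 and 0.535 with the JunD gRNA and -0.619, 0.152 and 0.0366 with the Rosa26 gRNA. Rosa26 gRNA replicate 1 is in the average used for each other library, so their values depend on it. The trend and the gRNA cannot be told apart.

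**Figure D3:**
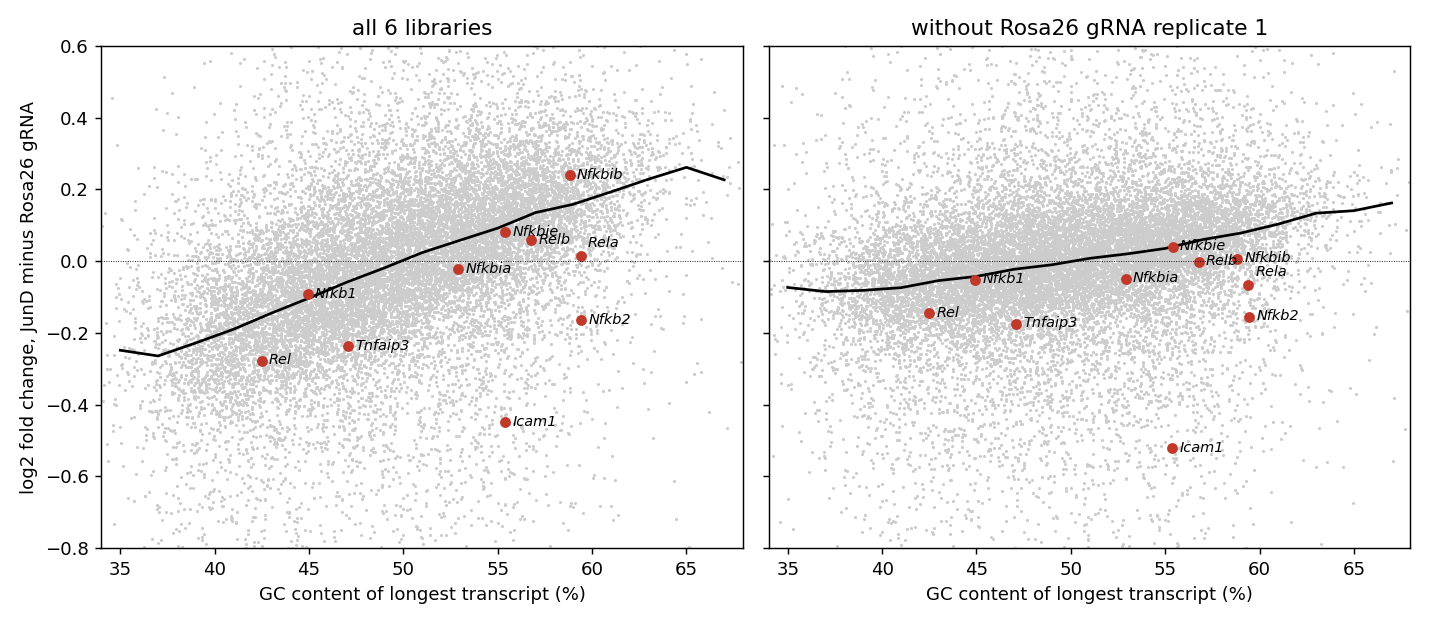
Log2 fold change (JunD gRNA minus Rosa26 gRNA) against the GC content of the longest transcript in percent, for all tested genes (grey), their running median in bins of GC content (black line) and the 10 NF-kB genes (red), with all 6 libraries and without Rosa26 gRNA replicate 1. Rel, Tnfaip3 and Nfkb1 lie on the left, where the median is below 0, whereas Icam1 and Nfkb2 lie below the line on the right; genes beyond -0.8 and 0.6 are outside the axis.

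Levels were compared between members in TPM (counts scaled by the length of the longest transcript and by the library's sum), as medians over the 6 libraries. Nfkb2 was at 75.5 TPM (67.0 to 81.8) and Nfkbia at 66.3 TPM (60.7 to 73.1), and their ranges overlapped. Rela followed at 52.25 TPM (43.5 to 56.25), below Nfkbia in each library. Nfkb1 at 37.5 TPM and Nfkbib at 34.1 TPM overlapped, and Relb at 23.1 TPM overlapped with Nfkbib through Rosa26 gRNA replicate 1. At the low end, Icam1 (7.84 TPM), Nfkbie (7.74 TPM) and Rel (6.27 TPM) overlapped with one another, and Tnfaip3 was lowest in every library (4.53 TPM). With the union of annotated exons as the length, Nfkb1 was at 15.8 TPM and below Relb (24.1 TPM), and Nfkbia (80.2 TPM) was above Nfkb2 (76.4 TPM). On that scale Icam1 (5.49 TPM) was below both Nfkbie (9.43 TPM) and Rel (7.74 TPM). Within a library, the TPM ratio of Nfkb2 to Rela was 1.76, 1.45 and 1.44 with the Rosa26 gRNA and 1.49, 1.32 and 1.29 with the JunD gRNA. The ratio of Nfkbia to Rela was 1.42, 1.30 and 1.22 against 1.22, 1.33 and 1.29. Both ratios overlapped between the groups.

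Upstream of the members, receptors, adaptors, kinases and ubiquitin enzymes held no call in edgeR without the GC and length correction. Of 22 tested receptors and adaptors, 0 passed with 6 or with 5 libraries (median log2 fold change 0.04 and 0.01, beside -0.01 and -0.00 for all tested genes). Il1r1, the receptor of interleukin 1, was abundant, at 1053, 860 and 879 CPM with the Rosa26 gRNA and 815, 798 and 786 CPM with the JunD gRNA. These groups did not overlap, and its log2 fold change was -0.20 ± 0.08 (SE, edgeR adjusted p = 0.417) with 6 libraries and -0.12 ± 0.03 with 5 (edgeR adjusted p = 0.0609). Il1r1 passed on those 5 libraries with DESeq2 (-0.11, adjusted p = 0.0277) and limma-voom (-0.12, adjusted p = 0.0301). With the GC and length correction on them it was -0.05. Tlr2, a receptor of bacterial lipoproteins, had a log2 fold change of -0.51 ± 0.19 (SE) and -0.31 ± 0.17, and Traf6, an adaptor ligase, Il1rap, the co-receptor of Il1r1, and Tradd, the adaptor of the TNF receptor, stood at -0.23, -0.17 and 0.25 with 6 libraries and -0.09, -0.15 and 0.14 with 5. Of 21 tested kinases and ubiquitin enzymes 0 passed with 6 or 5 libraries (medians -0.09 and -0.05), and 1, Ube2n, a ubiquitin-conjugating enzyme named after its value was seen, rose after the correction on 5 libraries (0.24 ± 0.06 (SE), edgeR adjusted p = 0.0318). Chuk, a catalytic kinase subunit that phosphorylates IkB proteins and the Nfkb2 precursor, stood at 92.5, 78.4 and 74.4 CPM against 68.3, 67.6 and 67.9 CPM. Its groups did not overlap, and its log2 fold change was -0.25 ± 0.08 (SE) with 6 libraries, -0.16 ± 0.05 with 5 and -0.10 after the correction. On 5 libraries Chuk passed with DESeq2 (-0.16, adjusted p = 0.0461). Birc2, a ubiquitin ligase of the receptor complex, and Map3k8, a kinase that binds the Nfkb1 precursor, had log2 fold changes of -0.21 and -0.32 with 6 libraries and -0.14 and -0.34 with 5. Tab3 and Xiap, which act beside the kinase complex, were at -0.24 and -0.28 with 6 libraries, -0.12 and -0.08 with 5, and -0.03 and 0.03 after the correction on 5.

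Of 16 other inhibitors and nuclear IkB proteins, 14 were tested and 0 passed with 6 or 5 libraries (medians -0.10 and -0.07). Nfkbiz, a nuclear IkB protein, stood at 51.99, 50.7 and 50.3 CPM against 44.7, 47.0 and 41.1 CPM. Its groups did not overlap, and its log2 fold change was -0.19 in both fits and -0.18 after the correction on 5 libraries (edgeR adjusted p = 0.417, 0.0941 and 0.0823). Those of Itch, a ubiquitin ligase, and Otud7b and Cyld, deubiquitinases, were -0.30, -0.19 and -0.19 with 6 libraries and -0.17, -0.12 and -0.06 with 5. Tax1bp1, a ubiquitin-binding partner of Tnfaip3, went from -0.19 to -0.02.

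Genes that NF-kB is known to switch on in other settings were called in both directions. Of 34 such target genes, 27 were tested. Without Rosa26 gRNA replicate 1, 8 fell, 2 rose and 17 did not pass (median -0.28), beside 1.4% of all genes called lower and 1.45% called higher. With all 6 libraries 0 passed (median -0.37). Earlier results on these data entered the choice of this list, so it is not independent evidence of a direction. The 8 that fell were Ptgs2, Lcn2, Csf1, Cxcl1, Cxcl10, Birc3, Nos2 and Ccl2. The groups of Lcn2 overlapped with all 6 libraries, at 3.64, 7.78 and 6.54 CPM against 3.13, 3.82 and 4.35 CPM. Nos2 rested on few reads, with 21, 56 and 53 counts against 3, 10 and 7. Birc3, a ubiquitin ligase and feedback target named after its value was seen, stood at 13.8, 14.2 and 14.0 CPM against 10.7, 11.6 and 9.85 CPM, and fell by 0.39 on the log2 scale on 5 libraries (edgeR adjusted p = 0.0281), with -0.37 on 6 (edgeR adjusted p = 0.417). Like Icam1 its groups lay apart. The largest folds were in genes of low level, such as Cxcl1, a neutrophil chemokine at 2.19, 2.68 and 2.38 CPM against 0.407, 0.609 and 1.249 CPM, with a log2 fold change of -1.64 on 6 libraries and -1.71 on 5. On 6 libraries the log2 fold changes of Ptgs2, the inducible prostaglandin synthase, Ccl2, a monocyte chemokine, and Csf1, a macrophage growth factor, were -1.11 ± 0.13, -1.48 ± 0.18 and -0.57 ± 0.09 (SE). On 5 libraries those of Ptgs2, Ccl2 and Csf1 were -1.03 ± 0.12, -1.44 ± 0.17 and -0.63 ± 0.06 (SE).

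The 2 targets that rose were Tnfrsf9 and Cx3cl1. Tnfrsf9, a co-stimulatory receptor of the TNF receptor family, stood at 3.46, 3.52 and 3.91 CPM with the Rosa26 gRNA and at 5.0, 5.65 and 5.84 CPM with the JunD gRNA. Its groups did not overlap, and it rose by 0.57 ± 0.15 (SE) on 5 libraries (edgeR adjusted p = 0.035), with 0.61 on 6 (0.417). Cx3cl1, a membrane-bound chemokine named after its value was seen, stood at 23.98, 33.0 and 31.8 CPM against 41.5, 38.6 and 42.1 CPM, and rose by 0.34 ± 0.06 (SE, edgeR adjusted p = 0.00496) on 5 libraries, with 0.47 on 6 (0.417). Sod2, a mitochondrial superoxide dismutase and a common NF-kB target, also named after its value was seen, stood at 75.8, 74.3 and 70.3 CPM against 71.7, 75.8 and 69.4 CPM, with a 95% interval of -0.16 to 0.15 on 6 libraries and -0.10 to 0.11 on 5.

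**Figure D4:**
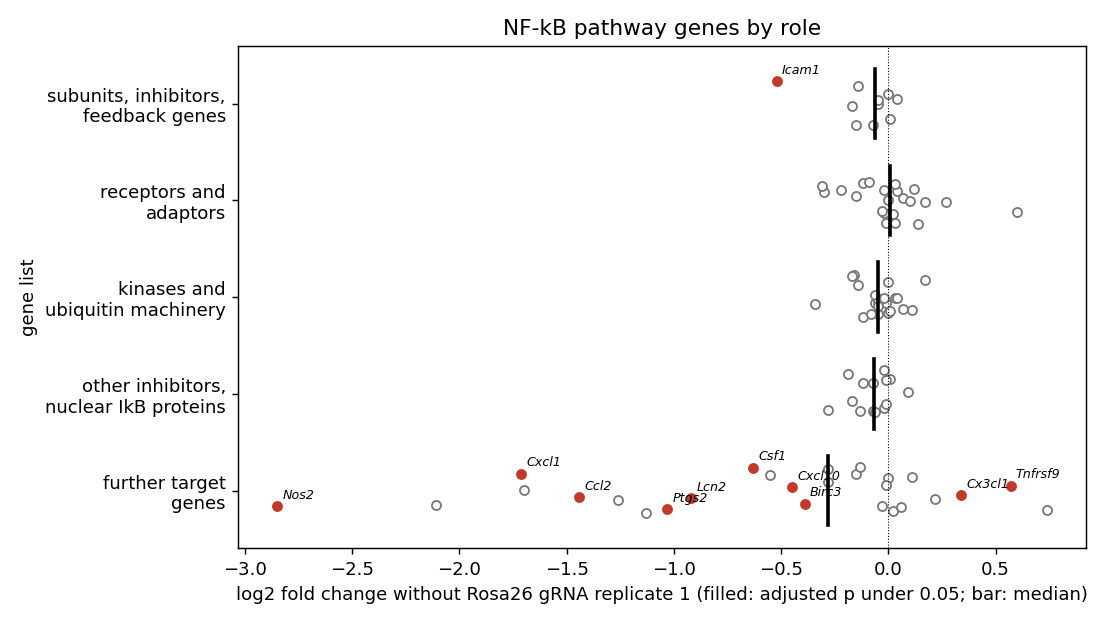
Log2 fold change (JunD gRNA minus Rosa26 gRNA) without Rosa26 gRNA replicate 1 for every tested gene of 5 lists of NF-kB pathway genes, with the median of each list as a bar and genes at an edgeR adjusted p under 0.05 filled and named. Filled points are Icam1 in the top list and 10 of 27 further target genes, while receptors, kinases and other inhibitors have none.

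The genes whose level over the 6 libraries was most like that of a member were ranked by Pearson correlation of log2 TMM-scaled CPM among 10665 genes of at least 5 CPM. For Icam1 they were Rbm3 (r = 0.984), Adora2a (0.982) and Sema6a (0.982). Nes (0.991), Cklf (0.982) and Atg14 (0.981) were most like Nfkb2. For Nfkbia they were Optn (0.978), Slc25a35 (0.977) and Rpp30 (0.971). With 6 points that share library effects and so many candidates, high values are found for many genes, and the ranks are a description.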

How the data were processed

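The authors deposited 1 table of raw counts per library, with TopHat2, featureCounts and mm10 named per the submitters' processing notes. Versions, annotation release and strand setting were not given in the sources used here. Symbols were matched without version number for 53274 of 53379 identifiers. Positions, transcript lengths and GC content came from GENCODE M21 on GRCm38, promoter windows from RefSeq. Every pair of libraries differed beyond sampling noise (smallest chi-square per degree of freedom 3.22).

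All tested genes were fitted together with edgeR 4.0.16 (R 4.3.3; TMM, filterByExpr, quasi-likelihood test, group as the sole term, two-sided p, Benjamini-Hochberg). SE is the absolute log2 fold change over the square root of F, and intervals are 95% t intervals from it. Alternatives used DESeq2 1.42.0, limma 3.58.1, other scalings and filters, the replicate number, each library left out, and a correction by splines (5 degrees of freedom) on GC content and length. The edgeR test was also run on simulated counts that held no deviating library and no GC trend. That run therefore says nothing on how either affects the calls.

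The 10 members and the gene lists were chosen with earlier results of these data known. Named genes are Jund, the members, up to 5 per pathway list with the smallest p at a mean of at least 1 CPM, and the 3 most alike for 3 members. TPM and the string GGAAATTCC were added after the data were seen.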

Additional observations from a re-analysis of the deposited data

How the results depend on the processing

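Over 20 alternatives, Icam1, Nfkb2, Rel and Tnfaip3 kept a negative log2 fold change wherever a value was given. Icam1 passed in 4 of 19 settings that gave it an adjusted p: with sample weights (-0.54) and, without Rosa26 gRNA replicate 1, in edgeR, in limma-voom and with the GC and length correction. The number of genes called was 0 with all 6 libraries and became 86 without a count filter, 67 with DESeq2, 293 with sample weights, 28 with that correction and 18 with it and a replicate block. Without Rosa26 gRNA replicate 1 it was 502 with the correction, 626 with DESeq2 and 588 with limma-voom. Leaving out each library in turn gave 0 to 523 genes, the 523 without Rosa26 gRNA replicate 1 and 0 without any other. It gave 0 to 1 members, 0 to 10 pathway genes, 5 to 6 members whose groups lay apart, and -0.54 to -0.38 for Jund.

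In place of 0 members called there was 1 with sample weights and, without Rosa26 gRNA replicate 1, 2 with the correction, 1 with DESeq2 (Nfkb2) and 1 with limma-voom. In place of 0 pathway genes there were 6 without a filter, 5 with DESeq2, 11 with sample weights, 3 with the correction, 3 with correction and block, and, without Rosa26 gRNA replicate 1, 12 with the correction, 5 with DESeq2 and 11 with limma-voom. DESeq2 on those 5 libraries gave no adjusted p for 2 members, Icam1 and Nfkbie, and for 29 pathway genes, among them Ptgs2, Ccl2, Cxcl1, Tnfrsf9, Tlr2 and Map3k8. Jund passed without a filter (-0.45), with DESeq2 (-0.47), with sample weights (-0.41) and, without Rosa26 gRNA replicate 1, with the correction (-0.51), DESeq2 (-0.38) and limma-voom (-0.38). The members whose groups lay apart numbered 3, not 5, with TMM-scaled CPM and with TPM over the union of exons, and 5 with TPM over the longest transcript.

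Sign changes were among values that did not pass. Rela was at -0.00 with library totals, -0.06 with sample weights, -0.16 with the correction, -0.16 with correction and block, -0.01 without JunD gRNA replicate 3 and, without Rosa26 gRNA replicate 1, at -0.07, -0.14 with the correction, -0.06 with DESeq2 and -0.07 with limma-voom. With the correction, alone or with the block, Nfkb1 was at 0.01, Relb at -0.08, Nfkbie at -0.04, and Xiap, Cyld and Tax1bp1 at 0.03. With it on 5 libraries Relb was at -0.06, Nfkbib at -0.07, Nfkbie at -0.00, Xiap at 0.03, Cyld at 0.02 and Tax1bp1 at 0.06. Relb was at -0.00 without Rosa26 gRNA replicate 1, and Nfkbia at 0.03 without Rosa26 gRNA replicate 2 and 0.04 without JunD gRNA replicate 1. With single libraries left out, Rela ranged from -0.07 to 0.07, Relb from -0.00 to 0.16 and Nfkbia from -0.05 to 0.04. The cause was not tested.

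Replicate numbers are shared by the groups, but same-numbered libraries did not deviate together (correlations across genes of 0.056, -0.039 and 0.074). With the replicate block 0 genes were called, as without it, and Icam1 was at -0.45 (edgeR adjusted p = 0.319). Depth limits genes under 1 CPM, such as Nos2 (SE 0.54 with 6 libraries).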
